A study of Homo sapiens with 32 samples.

Results

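The HOX genes were taken as every gene whose mapped symbol is HOXA, HOXB, HOXC or HOXD followed only by a number from 1 to 13, without antisense transcripts. The rule found 39 of the 57820 genes listed in each HCT116 count file, 11 in the HOXA, 10 in the HOXB, 9 in the HOXC and 9 in the HOXD cluster. Of the 11887 genes listed in each HEK293 file, 34 were HOX genes. HOXB1, HOXC5, HOXC11, HOXC12 and HOXD12 were not listed there and are treated as missing in HEK293, not as 0.

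RNA was sequenced from clones of 2 established human lines, the colorectal cancer line HCT116 (22 libraries) and the embryonic kidney line HEK293 (4 libraries). All clones, controls included, had been transfected with Cas9-GFP, sorted for it and expanded from single cells. Control clones received the empty guide vector, and deletion clones received guides against a distal element that the labels call E7, 18qNE or 18qE. The HCT116 controls were 4 clones, each with RNA extracted on days A, B and C (12 libraries), and clones 1 and 2 again on day D (2 libraries). The HCT116 E7 deletion was 1 clone on days A, B and C (3 libraries), so that the deletion and the founding of that clone cannot be told apart. The 18qNE deletion had 3 HCT116 clones with 1 library each (day A, B or A), and the 18qE deletion 2 clones on day D. In HEK293 there were 2 control clones and 2 E7 libraries of day E. The labels number those E7 libraries 1 and 2 but give them the same clone name, so the spread between them may be that within 1 clone. The deletions remove no gene of a count table, so the counts hold no check of them.

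HOX genes encode homeodomain transcription factors that give cells a position along the body axis. They lie in 4 clusters in the order of their paralog numbers, and in the embryo the low-numbered (anterior) genes of a cluster are used earlier and further forward than the high-numbered (posterior) ones. Polycomb proteins keep unused parts of a cluster silent, trithorax-type proteins keep used parts active, and PBX and MEIS proteins bind DNA together with HOX proteins. Colon epithelium is known to express HOXB genes, HOXA9, HOXA10 and HOXA13, whereas the posterior HOXD genes take part in the development of the limb, genital tract and kidney.

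The posterior HOXD genes separated the lines most. HOXD3 was the 1 HOX gene of 34 called for a different E7 change between the lines, where 3.38% of all genes were. Promoters of HOXD10, HOXD11, HOXD13 and HOXD3 are shown. The windows run from 250 bases before to 50 bases after a gene start in RefSeq (GRCh38.p14, not the build hg19 of the counts), and are written 5′ to 3′ with every CG dinucleotide in capitals.
HOXD10, chr2:176116528-176116827, plus strand: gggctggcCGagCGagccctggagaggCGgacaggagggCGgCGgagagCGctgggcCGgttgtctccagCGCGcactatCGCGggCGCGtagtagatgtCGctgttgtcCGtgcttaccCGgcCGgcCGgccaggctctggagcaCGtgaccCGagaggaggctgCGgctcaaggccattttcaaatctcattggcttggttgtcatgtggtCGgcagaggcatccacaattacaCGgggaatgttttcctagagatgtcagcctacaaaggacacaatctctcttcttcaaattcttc
HOXD11, chr2:176107030-176107329, plus strand: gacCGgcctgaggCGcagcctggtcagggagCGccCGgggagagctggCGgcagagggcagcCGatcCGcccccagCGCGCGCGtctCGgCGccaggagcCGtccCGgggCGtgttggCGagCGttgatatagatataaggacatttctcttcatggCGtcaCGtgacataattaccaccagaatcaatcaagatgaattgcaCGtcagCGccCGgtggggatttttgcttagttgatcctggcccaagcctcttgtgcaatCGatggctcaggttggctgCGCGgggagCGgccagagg
HOXD13, chr2:176092471-176092770, plus strand: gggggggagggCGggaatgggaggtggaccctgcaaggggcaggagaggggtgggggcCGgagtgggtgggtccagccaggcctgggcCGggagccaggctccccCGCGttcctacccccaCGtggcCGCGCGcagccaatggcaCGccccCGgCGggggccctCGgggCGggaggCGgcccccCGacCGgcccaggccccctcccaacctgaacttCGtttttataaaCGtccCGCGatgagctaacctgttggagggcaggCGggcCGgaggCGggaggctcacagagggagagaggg
HOXD3, chr2:176157057-176157356, plus strand: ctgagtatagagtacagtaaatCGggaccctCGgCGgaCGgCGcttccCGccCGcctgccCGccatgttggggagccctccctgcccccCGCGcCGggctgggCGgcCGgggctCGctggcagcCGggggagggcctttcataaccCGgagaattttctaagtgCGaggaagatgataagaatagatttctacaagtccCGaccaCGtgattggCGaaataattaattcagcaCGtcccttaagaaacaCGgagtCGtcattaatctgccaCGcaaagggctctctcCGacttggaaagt
A window was found for 20 of the 39 HOX genes, among them HOXB1 as the only HOXB gene, so the HOXB genes described below have no printed promoter. The HOXD10, HOXD11, HOXD13 and HOXD3 windows hold 23, 27, 24 and 25 CG dinucleotides, against a median of 14 over all 34943 windows of that length. Over the 26 distinct HOX windows the median was 22.5, with a range from 0 to 44. On either strand, TATAAA was found in HOXD13 among these 4 (overlapping matches on both strands), in 5 of the 26 HOX windows and in 11.6% of all windows. The PBX and HOX type motif TGATTNAT was found in HOXD11 among these 4, in 2 of the 26 HOX windows and in 2.83% of all windows. The caudal type motif TTTATG was found in none of these 4, in 3 of the 26 HOX windows and in 10.6% of all windows. HOXC4 and HOXC5 share 1 window, so reads near that start cannot be given to either gene from its position alone.

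The depth of a library was 9871667 to 14862268 gene counts for days A to C, 22972412 to 24887785 for day D and 26491576 to 34790193 for HEK293. Levels are given as CPM, the count of a gene scaled to the gene counts of its library, which are comparable between libraries for 1 gene but not between genes, since they are not scaled by length. At these depths 3 counts correspond to 0.202 to 0.304 CPM for days A to C, to 0.121 to 0.131 CPM for day D and to 0.0862 to 0.113 CPM in HEK293, and intervals and limits cover counting error only. The summed level of 12 colorectal epithelial markers was 3842 to 6460 CPM in the HCT116 controls and 4247 to 5798 CPM in the E7 clone. The sum hides its members: 4 of the 12 averaged below 1 CPM in the controls and 6 in the E7 clone. Of 8 tested, 1 rose and 2 fell in the E7 clone. Of 9 HEK293 markers, 7 were tested between the lines and all 7 were higher in HEK293, where 31.1% of all genes were. The markers were chosen for HEK293 and had to be listed in its files, so this outcome was largely set in advance. Of these 7, 1 averaged below 1 CPM in the HEK293 controls. The 2 HEK293 control clones stood apart from each other more than any other pair within a group (variance between their counts 210 times the sampling noise, against 19.0 times between the HEK293 E7 libraries and 2.37 to 49.0 times between the HCT116 control libraries), so the main results that rest on them are given with and without each.

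HCT116 control clones used 3 clusters in part and left most of HOXD near 0. A mean of at least 1 CPM was reached by 24 of 39 HOX genes, 9 of 11 in HOXA, 8 of 10 in HOXB, 5 of 9 in HOXC and 2 of 9 in HOXD. HOXB1, the most anterior HOXB gene, had no count in any of the 22 HCT116 libraries. HOXC12 had none in the 12 control libraries, which allows up to 0.0202 CPM over that group. HOXD10 had 13 counts and HOXD13 had 13 counts over all 22 HCT116 libraries together. HOXA and HOXB genes from paralog 9 on were present, with HOXA9 at a lowest, median and highest value of 53.2, 64.5 and 84.5 CPM in the 12 control libraries. HOXA13, the most posterior HOXA gene and a regulator of hindgut formation, was at 8.36 to 12.9 CPM, and HOXB13, a prostate and distal colon factor, at 7.19 to 14.4 CPM. HOXB2 was at 0.220, 0.810 and 1.04 CPM (lowest, median, highest), so that HOXB was used from HOXB3 on in these clones.

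**Figure D1:**
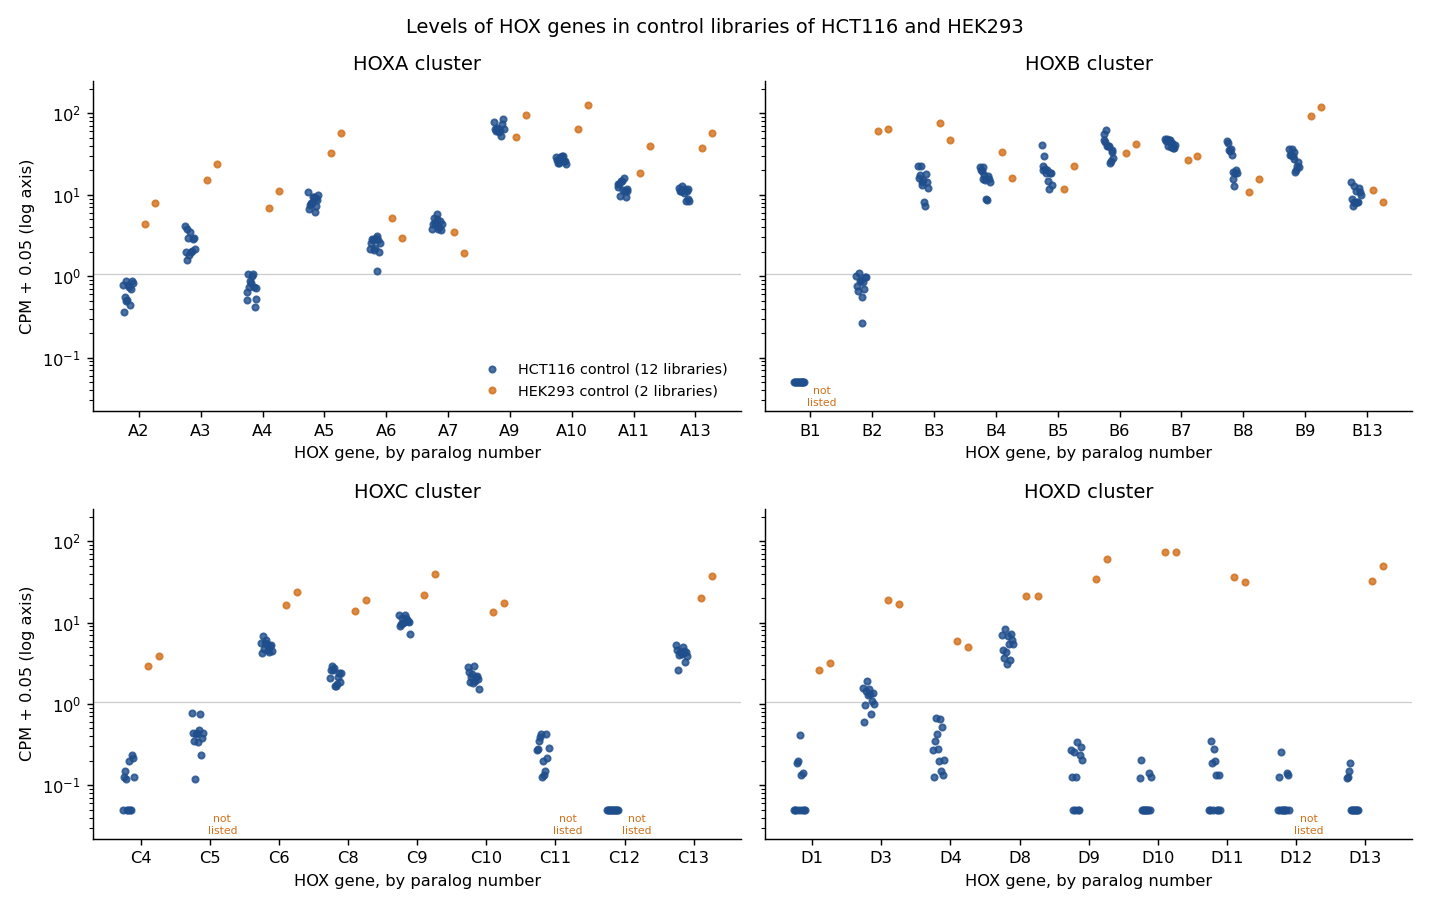
CPM plus 0.05 on a log axis for HOX genes, by cluster and paralog number, with 1 point per library (blue, 12 HCT116 control libraries of days A to C; orange, 2 HEK293 control libraries); the grey line marks 1 CPM and genes that the HEK293 files do not list are named so. HOXD9 to HOXD13 lie near 0 in HCT116, while HOXD10 lies at 73.0 and 73.8 CPM in HEK293; heights compare libraries within a gene, not genes.

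In HEK293 controls all 34 listed HOX genes reached 1 CPM and 30 of them 5 CPM. The rule by which the HEK293 files list genes was not given. Of their 11887 genes, 11806 passed the count filter in the HEK293 comparison, so genes may have been listed for their level there. The 34 of 34 is therefore not set against the 24 of 39 in HCT116. HOXD10, a posterior gene of the limb and kidney, was at 73.8 and 73.0 CPM in HEK293 controls and between 0 and 0.155 CPM in the 12 HCT116 controls. HOXD9 was at 34.5 and 60.1 CPM against 0 to 0.293 CPM. HOXB2, an anterior gene of the hindbrain, was at 61.1 and 64.7 CPM against 0.220 to 1.04 CPM. For these 3 genes no HCT116 control library came near the HEK293 values.

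Of the 34 HOX genes tested between the lines with edgeR's quasi-likelihood test (4 HCT116 control clones, 2 HEK293 control clones, Benjamini-Hochberg adjustment over all genes), 25 were higher and 3 lower in HEK293. Of all 11805 genes tested, 31.1% were higher and 26.0% lower, 57.0% in all. Only genes listed in the HEK293 files could enter, among HOX genes as among all genes. Genes low in HEK293 may thus be missing from these counts and from those by cluster. By cluster, the genes higher in HEK293 were 8 of 11 in HOXA, 3 of 9 in HOXB, 6 of 6 in HOXC and 8 of 8 in HOXD, and the median log2 differences (HEK293 minus HCT116) were 1.93, -0.28, 2.59 and 6.62, against 0.05 over all genes. HOXD10 was higher by 10.71 on the log2 scale (SE 0.39, adjusted p = 2.61e-06 by edgeR's quasi-likelihood test). Its pooled CPM was 2179 times that of HCT116 (exact 95% interval 933 to 6715), from 5 counts in 12 HCT116 libraries. The pooled ratios of HOXD13, HOXD11 and HOXD9 were 1209 (interval 517 to 3726), 422 (241 to 818) and 366 (234 to 609). HOXD8, in the middle of the cluster, was higher by 3.83 times (3.49 to 4.19), and HOXD1, HOXD3 and HOXD4 by 38.6, 14.8 and 19.0 times, so within HOXD the difference was largest from HOXD9 to HOXD13. Without HEK293 control 1, 29 HOX genes were called (73.2% of all genes), and without control 2, 31 (71.3%). The log2 difference of HOXD10 was 10.75 and 10.68 in these fits, and that of HOXA10, 1.61 with both controls, was 2.04 and 0.98.

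HOXB did not follow the other clusters. HOXB2 was higher in HEK293 by 6.15 on the log2 scale (SE 0.21, adjusted p = 2.02e-06 by edgeR), HOXB3 by 1.78 (SE 0.25, adjusted p = 8.61e-04) and HOXB9 by 1.70 (SE 0.21, adjusted p = 5.12e-04). The genes lower in HEK293 were HOXB7, HOXB8 and HOXA7. HOXB7 was at 26.7 and 29.9 CPM in HEK293 and at 37.0 to 49.0 CPM in HCT116, with no overlap. HOXB8 was at 10.7 and 15.7 CPM and at 12.6 to 45.4 CPM, where the 2 lines overlapped. The HOXB8 call was kept in 6 of 10 alternatives and lost with library totals (adjusted p = 0.0592, edgeR), without HCT116 control clone 1 (0.0651), without clone 2 (0.0792) and without HEK293 control 1 (0.108). HOXB4, HOXB5, HOXB6 and HOXB13 did not pass the test. The lines were extracted on different days, sequenced at different depths and listed with different genes, and line and day cannot be told apart. In bulk samples a difference may lie in the number of cells that use a gene or in the RNA per cell, which cannot be told apart.

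The HCT116 control clones differed from each other in HOXB genes. A test over the 4 clones with day as a term (edgeR) called 6 of 27 HOX genes, HOXB3, HOXB4, HOXB5, HOXB6, HOXB8 and HOXB9, where 7.8% of all 14988 genes were called. HOXB8, a posterior trunk gene, averaged 41.7 CPM in clone 1 (SD 5.04, n = 3 days), 34.0 in clone 2 (SD 2.94), 15.8 in clone 3 (SD 3.20) and 19.2 in clone 4 (SD 1.05). Its libraries ran from 36.0 to 45.4 CPM in clone 1 and from 30.7 to 36.4 CPM in clone 2, above all libraries of clone 3 (12.6 to 19.0 CPM) and of clone 4 (18.4 to 20.3 CPM). HOXB8 had an F of 75.5 and an adjusted p of 8.83e-07 (edgeR). HOXB6 averaged 49.0, 46.9, 30.2 and 32.3 CPM in clones 1 to 4, HOXB9 32.9, 33.3, 22.2 and 23.1 CPM, and HOXB4 20.6, 18.5, 10.9 and 15.6 CPM. Clones 1 and 2 were the higher clones for each of these genes. Without clone 3, 4 HOX genes and 490 of all 14801 genes (3.31%) were called. HOXB3 (adjusted p = 0.261, edgeR) and HOXB4 (0.121) were then not called. HOXB7 (48.0, 44.9, 40.3 and 38.5 CPM) had an adjusted p of 0.110 and HOXB13 one of 0.632. None of the 11 HOXA genes, 5 HOXC genes and 2 HOXD genes tested passed, with adjusted p from 0.231 to 0.986.

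With clone as a term, 8 of 27 HOX genes differed between days A, B and C (HOXA3, HOXA11, HOXB3, HOXB4, HOXB5, HOXB6, HOXB13 and HOXD8), a share below the 38.2% of all genes tested, and nothing particular to HOX genes is read from it. HOXB3 averaged 19.6 CPM on day A (SD 3.61, n = 4 clones), 13.2 on day B (SD 3.53) and 12.5 on day C (SD 4.19), and its range on day A, 15.4 to 22.8 CPM, overlapped that of day C, 7.26 to 17.4 CPM. HOXD8 averaged 7.32, 5.04 and 3.89 CPM, and no day A library overlapped one of days B or C. For both genes day A was the highest day. Without control clone 2, 3 of 26 HOX genes and 2228 of 14688 genes (15.2%) differed between days.

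**Figure D2:**
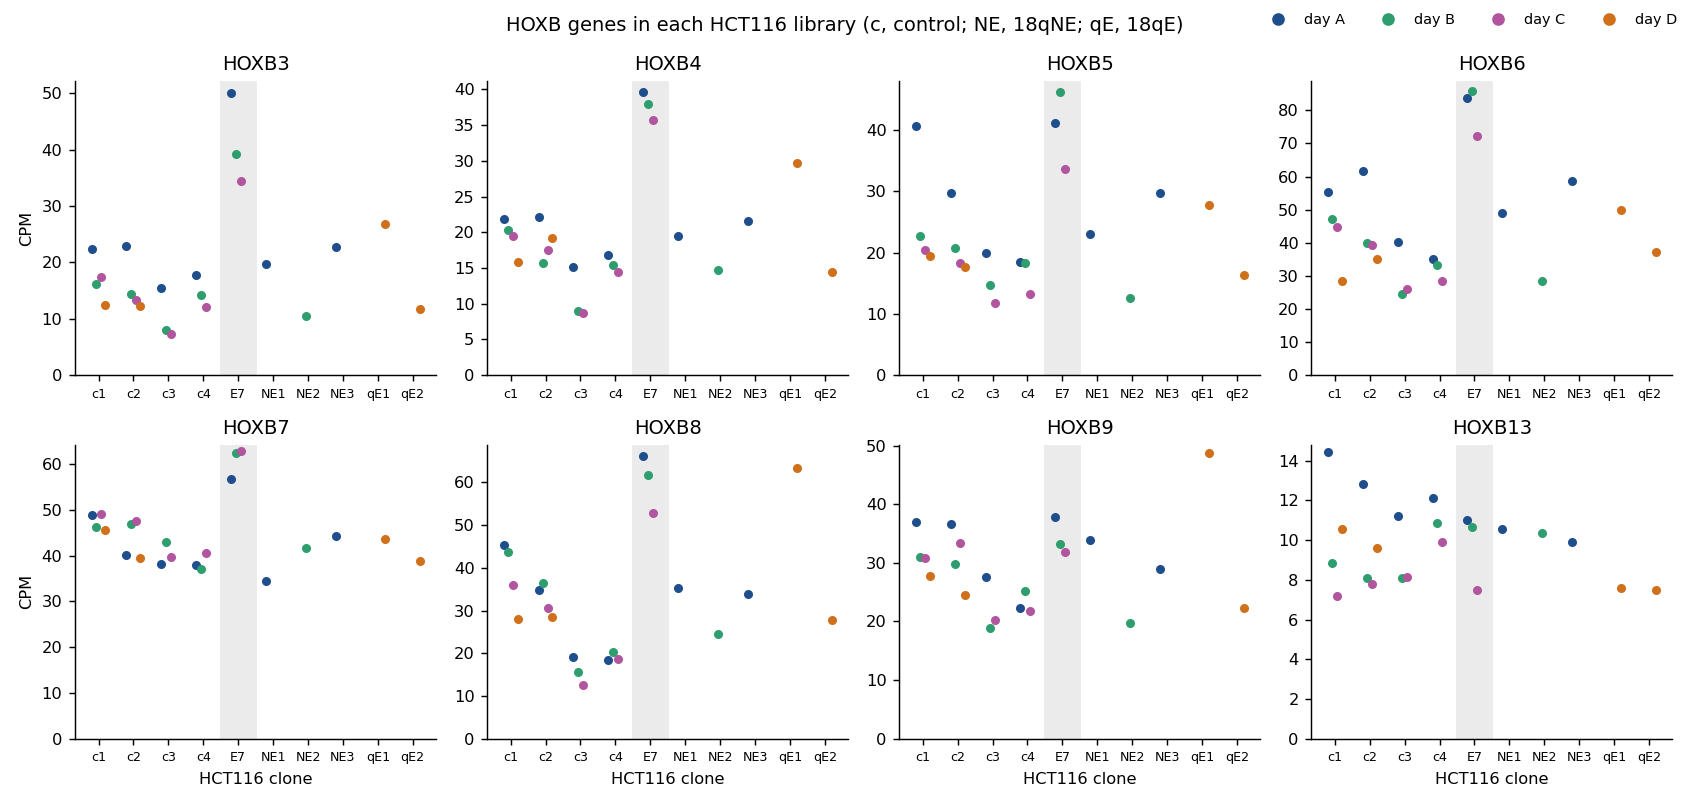
CPM (linear axis from 0) of 8 HOXB genes in each HCT116 library, by clone, with colour for the day of RNA extraction; the grey band marks the E7 clone. The 3 E7 libraries of HOXB8 (52.9 to 66.1 CPM) lie above all control libraries, control clones 1 and 2 lie above clones 3 and 4, and 18qE clone 1 lies at 63.3 CPM.

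The E7 clone of HCT116 had higher HOXB RNA and lower HOXA10 and HOXD3 RNA than the 4 control clones. Of 30 HOX genes tested on sums over days A to C, 4 rose (HOXB3, HOXB4, HOXB6 and HOXB7) and 2 fell (HOXA10 and HOXD3). Of all 17664 genes tested, 7.58% rose and 6.32% fell (13.9% in all). The share of HOX genes called, 6 of 30, was thus not far from that of all genes, and the 4 that rose lie next to each other but for HOXB5. The p-values measure the E7 clone against the spread of 4 control clones, and the lone clone is assumed to vary like them.

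HOXB3 was at 50.1, 39.3 and 34.4 CPM in the E7 clone on days A, B and C, and at 7.26, 14.9 and 22.8 CPM (lowest, median, highest) in the 12 controls. It rose by 1.47 on the log2 scale (SE 0.23, adjusted p = 0.00683, edgeR's quasi-likelihood test). HOXB3, like its neighbour HOXB4, is a hindbrain and blood progenitor factor. HOXB4 was at 39.6, 38.0 and 35.8 CPM against 8.65, 16.3 and 22.1 CPM, a rise of 1.22 (SE 0.25, adjusted p = 0.0190, edgeR). HOXB6 was at 83.6, 85.8 and 72.3 CPM against 24.6, 39.5 and 61.8 CPM, a rise of 1.04 (SE 0.24, adjusted p = 0.0290, edgeR). HOXB7 was at 56.8, 62.4 and 62.9 CPM against 37.0, 41.9 and 49.0 CPM, a rise of 0.51 (SE 0.12, adjusted p = 0.0341, edgeR). For these 4 genes every E7 library lay above every control library. Of all genes tested, 7.5% lay above the controls and 6.6% below them without overlap, and of the 30 HOX genes 6 lay above and 2 below.

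The other HOXB genes did not pass the test. HOXB8 was at 66.1, 61.8 and 52.9 CPM against 12.6, 25.5 and 45.4 CPM, with no overlap and a log2 change of 1.14 (SE 0.42, adjusted p = 0.120, edgeR). It is also the gene that differed most between the control clones. HOXB5 was at 41.2, 46.3 and 33.6 CPM against 11.8, 19.2 and 40.6 CPM, overlapping control clone 1 on day A (log2 change 0.96, adjusted p = 0.0598). HOXB2 was at 1.68, 1.97 and 1.04 CPM against at most 1.04 CPM (log2 change 1.11, adjusted p = 0.0622). HOXB9 was at 37.7, 33.3 and 31.8 CPM against 18.8 to 37.0 CPM, overlapping the controls (log2 change 0.31, SE 0.23). HOXB13, which lies apart from the rest of the cluster, had a log2 change of -0.01 (SE 0.14). The median log2 change of the 9 HOXB genes tested was 1.04, against -0.01 over all genes, and the changes ran from 0.96 to 1.47 for HOXB2, HOXB3, HOXB4, HOXB5, HOXB6 and HOXB8. The summed CPM of the 9 HOXB genes was 388, 380 and 332 in the E7 clone and 135 to 287 in the controls. Over the same libraries, the summed level of 8 leukocyte markers was 1.31 to 3.36 CPM in the E7 clone and 4.10 to 22.8 CPM in the controls, with PTPRC at 0 in all control libraries. That of 6 fibroblast markers was 12.3 to 22.6 CPM and 17.7 to 30.1 CPM, with COL1A2, DCN and LUM at 0 in both groups. That of 8 listed HEK293 markers was 31.3 to 46.0 CPM and 79.9 to 110 CPM. The part of these markers in the HOX changes was not tested.

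The genes beside HOXB did not share its change as a set. The 10 genes tested on one side (SP2 to SKAP1) had a median log2 change of 0.08, with 1 called higher, and the 10 on the other side (TTLL6 to PHB1) one of -0.07, with 1 called lower. Their changes ran from -0.23 to 0.97 and from -1.50 to 0.13. The nearest tested genes were SKAP1 (0.88, SE 0.43) and TTLL6 (-1.17, SE 0.35), neither of them called. Among 14 noncoding RNAs of the HOX clusters that were tested, 2 rose and none fell, both from HOXB, where 7.58% of all genes rose and 6.32% fell. HOXB-AS3 averaged 9.86 CPM in the E7 clone and 4.73 CPM in controls (log2 change 1.08, SE 0.29, adjusted p = 0.0458, edgeR), and HOXB-AS2 averaged 0.628 and 0.183 CPM (log2 change 1.76, adjusted p = 0.0259). The strand setting used for counting was not given in the sources used here, so reads of the HOXB genes and of these antisense RNAs cannot be told apart.

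HOXA10, a posterior factor of gut and uterus, was at 16.9, 17.8 and 17.1 CPM in the E7 clone and at 24.1, 26.6 and 30.2 CPM (lowest, median, highest) in the controls. All E7 libraries lay below all controls, and HOXA10 fell by 0.63 on the log2 scale (SE 0.12, adjusted p = 0.0132, edgeR). Its neighbour HOXA9 was at 67.8, 66.4 and 69.5 CPM, inside the range of the controls (log2 change 0.05, SE 0.12). HOXA13 was at 9.08, 7.58 and 8.27 CPM, partly inside it (log2 change -0.36, SE 0.16, adjusted p = 0.197). HOXD3, an anterior gene linked to cell adhesion, was at 0.336, 0.281 and 0.522 CPM against 0.543, 1.25 and 1.88 CPM, and fell by 1.67 (SE 0.37, adjusted p = 0.0234, edgeR). These HOXD3 values rest on few counts and its call was lost without control clone 2 (log2 change -1.55, adjusted p = 0.0516) and without day A (-1.48, adjusted p = 0.118). HOXB7 was lost without control clone 2 (0.53, adjusted p = 0.0748). HOXC9 (-0.53, SE 0.17), HOXC6 (0.46, SE 0.16) and HOXD8 (-0.49, SE 0.18) had adjusted p of 0.0824, 0.0970 and 0.115, and none of the 7 HOXC genes tested passed.

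Leaving out 1 library set or changing 1 setting at a time gave 14 alternatives, of which 13 called HOXB3, HOXB4, HOXB6 and HOXA10. Over all 14 the log2 changes were 1.31 to 1.59, 1.07 to 1.35, 0.90 to 1.19 and -0.77 to -0.59. All 14 hold the same E7 clone, and 1 of the 13 took its libraries as replicates, so they are not independent. The exception took 18qNE clones as the reference, where edgeR called no HOX gene of 27 tested and 79 of 15155 genes (0.521%). The log2 differences of HOXB3, HOXB4, HOXB6 and HOXB7 were then 1.35, 1.07, 0.90 and 0.56, those of HOXA10 and HOXD3 -0.77 and -2.30.

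Genes that regulate or work with HOX proteins were read from lists. Of all 17664 genes tested in the E7 comparison, 7.58% rose and 6.32% fell. The lists are short and were not tested as sets, so nothing particular to them is read from the counts. Of the PBX, MEIS and PKNOX partners, 1 of 9 tested rose and none fell: PBX3 averaged 11.4 CPM in the E7 clone and 6.47 CPM in controls (log2 change 0.83, adjusted p = 0.0332, edgeR). Of 24 Polycomb genes tested 5 rose (CBX6, CBX7, PHC1, PHC2 and PHF19) and none fell, and CBX7, a chromodomain subunit, averaged 32.1 against 19.6 CPM. None of 17 trithorax and HOX activator genes passed. Of 12 genes of retinoic acid handling, 2 rose, and ALDH1A3, an enzyme that makes retinoic acid, averaged 273 against 94.4 CPM. CDX2, the intestinal homeodomain factor that acts upstream of posterior HOX genes, averaged 15.5 against 21.4 CPM (log2 change -0.45, SE 0.12, adjusted p = 0.0512). Among 12 epithelial markers, the hepatocyte and gut factor HNF4A fell to 0.258 from 9.16 CPM, CDH1 fell to 48.3 from 80.9 CPM and KRT19 rose to 1143 from 897 CPM. The part of these genes in the HOX changes was not tested.

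**Figure D3:**
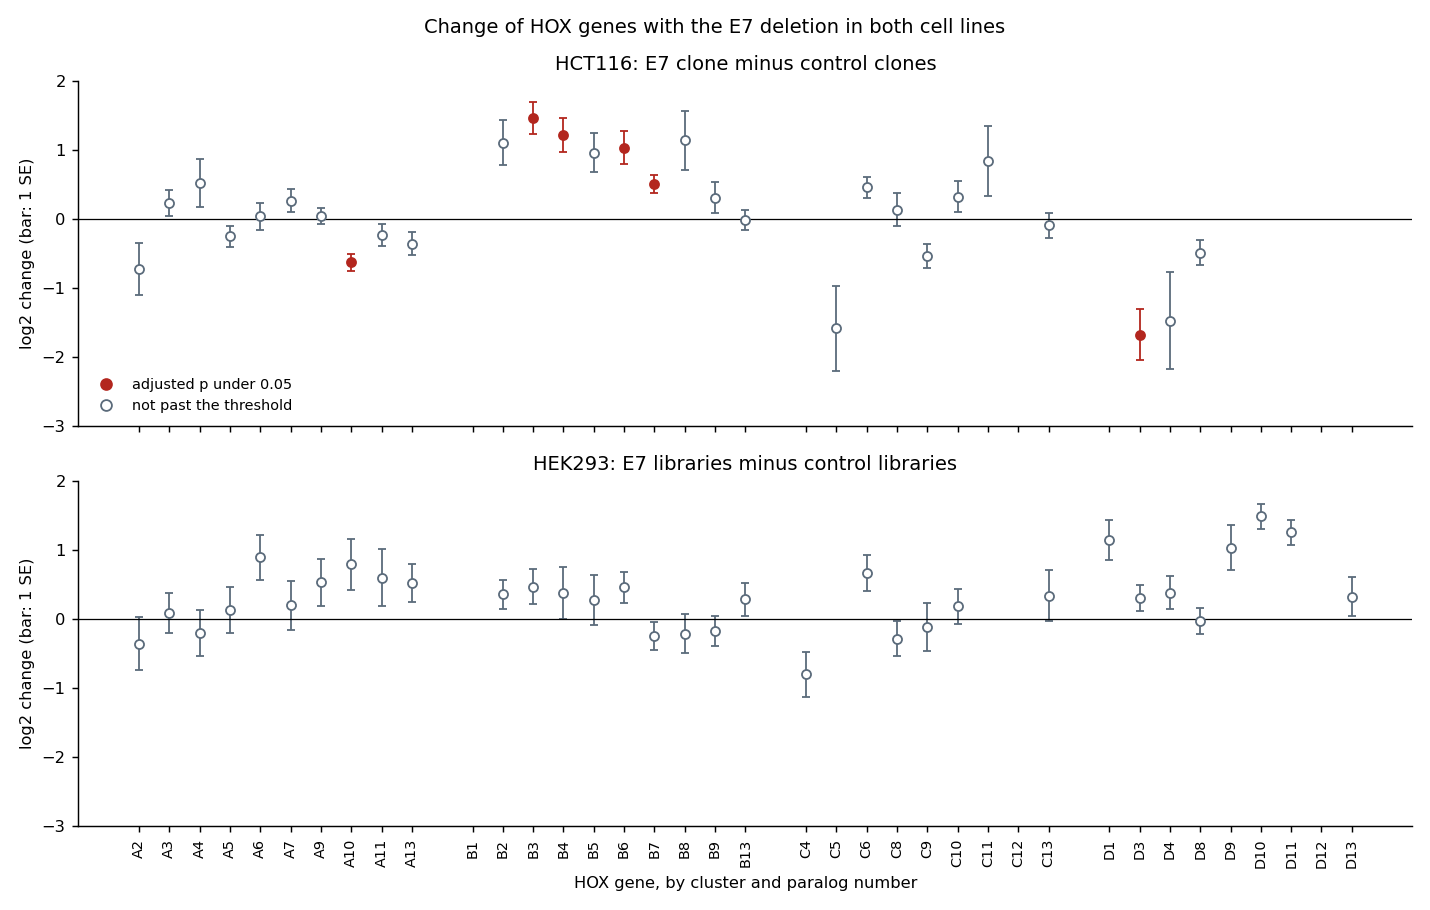
Log2 change with the E7 deletion for HOX genes, by cluster and paralog number, in HCT116 (top) and HEK293 (bottom); bars are 1 SE, filled red points passed an adjusted p of 0.05, and genes with no point were not tested. In HCT116 HOXB2 to HOXB8 lie above 0 and HOXD3 at -1.67, and in HEK293 HOXD10 lies at 1.48 with no gene past the threshold.

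The 18qNE clones did not differ from the controls in any HOX gene by edgeR (0 of 27 tested called, 3 at an unadjusted p under 0.05). Their controls, summed over days A and B, are in part those of the E7 comparison. In all genes 0.0% were called (505 of 15524 at an unadjusted p under 0.05), and DESeq2 called 13 genes and no HOX gene. HOXA3, an anterior gene of the hindbrain and pharynx, was at 10.5, 1.70 and 5.70 CPM in 18qNE clones 1, 2 and 3, against 1.94 to 4.14 CPM in the controls of days A and B. Clones 1 and 3 lay above the range of the controls and clone 2 below it (log2 change 0.99, SE 0.44). Clones 1 and 3 were of day A and clone 2 of day B, so clone 2 and its day cannot be told apart for any gene here. In the controls, HOXA3 averaged 3.53 CPM on day A and 2.43 CPM on day B, and HOXB5 27.2 and 19.1 CPM. HOXA6 had a log2 change of 0.51 (SE 0.22). HOXB8 was at 35.3, 24.5 and 33.8 CPM and HOXB3 at 19.7, 10.4 and 22.7 CPM, inside the controls' range for every clone. HOXB6 (49.1, 28.6 and 58.7 CPM), HOXB4 (19.4, 14.7 and 21.6 CPM) and HOXB9 (33.8, 19.7 and 29.0 CPM) were also inside it, with clone 2 the lowest. HOXB5 (23.1, 12.5 and 29.8 CPM) lay below the controls' 14.7 to 40.6 CPM in clone 2, and HOXB7 (34.5, 41.8 and 44.4 CPM) below their 37.0 to 48.8 CPM in clone 1. HOXB2 was at 0.703, 0.639 and 0.901 CPM. Their HOXB sum was 163 to 251 CPM. HOXA9 was at 74.1, 76.1 and 77.0 CPM and HOXA10 at 30.7, 27.3 and 30.7 CPM. HOXA13 was at 11.2, 8.03 and 11.6 CPM and HOXD3 at 1.49, 1.21 and 1.95 CPM. HOXD9 (0.351, 0 and 0.150 CPM) and HOXD10 (0.264, 0.0710 and 0.0751 CPM) stayed near 0.

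The 18qE clones did not differ from the day D controls in any HOX gene by edgeR (0 of 28 tested called, 0 at an unadjusted p under 0.05). In all genes 0.0% were called (391 of 15261 at an unadjusted p under 0.05), and DESeq2 called 18 genes and no HOX gene. The 2 clones differed from each other in HOXB. HOXB8 was at 63.3 CPM in clone 1 and 27.8 CPM in clone 2, with 28.0 and 28.4 CPM in the controls. HOXB9 was at 48.7 and 22.3 CPM against 27.8 and 24.5 CPM, and HOXB3 at 26.8 and 11.8 CPM against 12.5 and 12.2 CPM. Clone 1 was thus above both controls for the 3 genes and clone 2 below them. Without clone 2, edgeR called these 3 HOX genes, with log2 changes of 1.25 for HOXB8 (adjusted p = 3.24e-04), 1.20 for HOXB3 and 0.98 for HOXB9 (both adjusted p = 0.00532), and 132 of all 15708 genes (0.84%). With 1 18qE library left, the spread comes from the 2 control libraries, and the lone clone is assumed to vary like them. Without clone 1 the log2 changes were -0.03, -0.08 and -0.24, and none was called.

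HOXB7 was at 43.6 and 38.9 CPM in the 18qE clones and at 45.7 and 39.5 CPM in the day D controls, and HOXA10 at 19.2 and 23.4 against 24.7 and 23.2 CPM, both overlapping. HOXB6 was at 50.02 and 37.2 against 28.4 and 35.1 CPM, both clones above the controls. HOXB4 (29.7 and 14.4 against 15.8 and 19.2 CPM), HOXB5 (27.7 and 16.3 against 19.4 and 17.7 CPM) and HOXB2 (1.37 and 0.780 against 1.05 and 0.871 CPM) had clone 1 above and clone 2 below both controls. HOXA9 was at 60.9 and 56.5 against 74.0 and 67.6 CPM, both clones below the controls, and HOXA13 at 7.55 and 10.1 against 8.81 and 9.58 CPM. HOXD3 was at 1.49 and 1.47 CPM against 1.09 in both controls. HOXD9 and HOXD10 were at 0 to 0.0866 CPM in the 4 day D libraries, and in the E7 clone HOXD10 had no count and HOXD9 0, 0.0702 and 0 CPM. The summed level of the 8 leukocyte markers was 8.23 to 27.7 CPM in the 18qE clones and 4.37 to 6.27 CPM in the controls. PTPRC, CD3E and MS4A1 were at 0 in both groups, and 5 of the 8 averaged below 1 CPM in the 18qE clones and 6 in the controls. The part of these markers in the HOX values was not tested.

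In HEK293 the E7 libraries had more HOXD RNA than both controls in 7 of 8 HOXD genes. Of all genes tested, 28.7% lay above both controls in the same way. No HOX gene of 34 passed edgeR's test (6 at an unadjusted p under 0.05). In all genes 0.0254% were called (3 of 11806, and 1487 at an unadjusted p under 0.05). DESeq2 called 454 genes, 2 of them HOX genes (HOXD10 and HOXD11). HOXD10 was at 73.8 and 73.0 CPM in the controls and at 222 and 208 CPM in the E7 libraries (log2 change 1.48, SE 0.18, adjusted p = 0.153, edgeR). HOXD11, its posterior neighbour, was at 36.4 and 31.6 CPM and at 91.0 and 78.5 CPM (1.25, SE 0.18, adjusted p = 0.189). HOXD9 was at 34.5 and 60.1 CPM and at 100.3 and 104 CPM (1.03, SE 0.32, adjusted p = 0.322). In each of these 3 neighbours both E7 libraries lay above both controls, and control 1 and control 2 were close for HOXD10 and apart for HOXD9.

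HOXD1, at the anterior end, was at 2.56 and 3.17 CPM and at 6.21 and 7.13 CPM (1.15, SE 0.29, adjusted p = 0.249). HOXD13, at the posterior end, was at 32.5 and 49.5 CPM and at 50.7 and 57.6 CPM (0.32, SE 0.28). HOXD8 was at 21.1 and 21.0 CPM and at 20.3 and 22.7 CPM, where the groups overlapped. The median log2 change of the 8 HOXD genes was 0.71, against -0.01 over all genes, and the summed CPM of those 8 genes was 225 to 260 in the controls and 506 to 523 in the E7 libraries. Over all clusters 17 of 34 HOX genes lay above and 2 below the controls without overlap, where 28.7% of all genes lay above and 20.9% below. The summed level of the 6 listed epithelial markers was 498 to 769 CPM in the controls and 1091 to 1236 CPM in the E7 libraries, and its part in the HOX values was not tested.

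**Figure D4:**
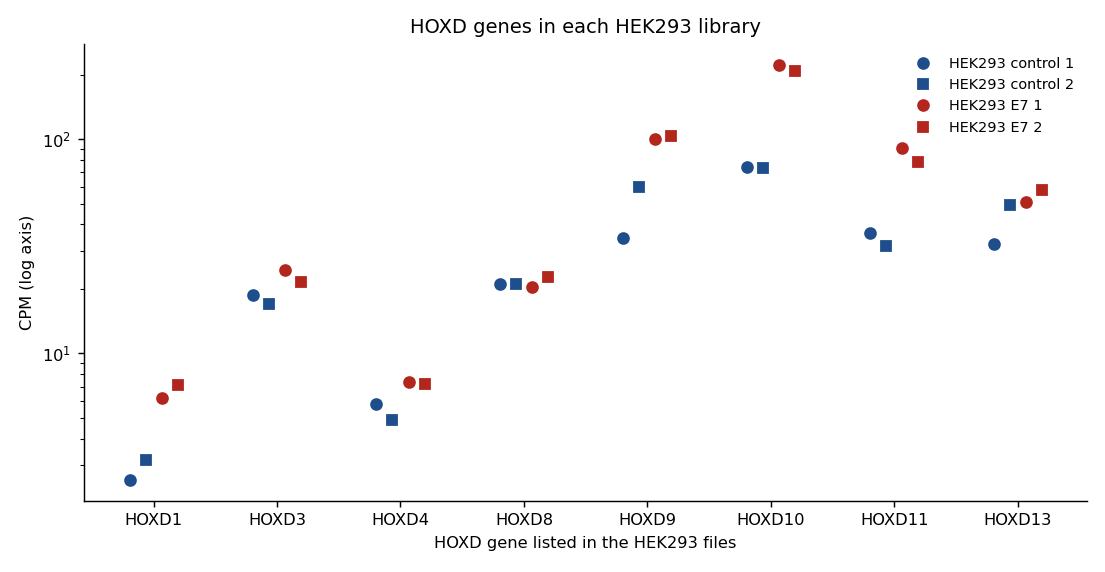
CPM on a log axis of the 8 HOXD genes listed in the HEK293 files, with 1 point per library (blue, controls 1 and 2; red, E7 libraries 1 and 2; circles are number 1 and squares number 2). Both E7 points lie above both control points for each gene but HOXD8, and HOXD10 goes from 73.0 and 73.8 to 208 and 222 CPM. Of all genes tested in HEK293, 28.7% lay above both controls in this way.

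The HEK293 controls differed from each other as much as many HOX genes differed between the groups. Of 34 HOX genes, 14 were more than 1.5 times higher and 4 more than 1.5 times lower in control 2 than in control 1, and for HOXA 9 of 11 were higher and 2 of 11 lower by that factor. The share of all genes beyond that factor was not taken. Over all genes the variance between these 2 controls was 210 times the sampling noise, so nothing particular to HOX genes is read from these counts. HOXA10 was at 64.5 and 126 CPM in the controls and at 170 and 179 CPM in the E7 libraries (log2 change 0.79, SE 0.37, adjusted p = 0.456). HOXA9 was at 51.9 and 95.6 CPM and at 115 and 111 CPM, and HOXA13 at 38.0 and 57.6 CPM and at 69.4 and 74.9 CPM. For these 3 genes the E7 libraries lay above both controls, but the gap between the controls was wider than that from control 2 to either E7 library. HOXB3 was at 77.0 and 46.7 CPM and at 90.3 and 87.5 CPM, HOXB4 at 33.6 and 16.2 CPM and at 39.5 and 27.6 CPM, and HOXB7 at 26.7 and 29.9 CPM and at 23.8 and 26.3 CPM. HOXB2 (61.1 and 64.7, then 74.8 and 93.8 CPM) and HOXB6 (32.3 and 41.6, then 51.1 and 55.5 CPM) were above both controls in both E7 libraries. HOXB5 (11.8 and 22.6, then 20.4 and 23.7 CPM), HOXB8 (10.7 and 15.7, then 11.5 and 12.4 CPM) and HOXB9 (92.8 and 120, then 96.6 and 102 CPM) overlapped.

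Leaving out 1 HEK293 control moved the number of HOX genes called more than the other settings run here. Without control 1, edgeR called 16 of 34 HOX genes and 6210 of all 11830 genes (52.5%), so the HOX share was near that of all genes. Without control 2 it called 14 HOX genes and 1914 of 11823 genes (16.2%). HOXD10 was called both times (log2 change 1.44 and 1.51), as were HOXD11 (1.31 and 1.19), HOXD9 (0.65 and 1.54), HOXD1 (0.96 and 1.35), HOXA10 (0.35 and 1.41) and HOXC6 (0.39 and 0.99). HOXA6 (1.31) and HOXC4 (-1.05) were called without control 1 alone. Without either E7 library no HOX gene was called. With 1 control left, the spread comes from the 2 E7 libraries, which may be of 1 clone.

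The E7 change differed between the lines in 1 of 34 HOX genes by the interaction term of a joint edgeR fit, a share near the 3.38% of all 11849 genes that passed. HOXD3 was at 18.7 and 17.0 CPM in HEK293 controls and at 24.5 and 21.6 CPM in HEK293 E7 libraries, while it fell in HCT116 (0.336, 0.281 and 0.522 CPM against a median of 1.25 CPM). The HEK293 change minus the HCT116 change was 1.99 on the log2 scale (SE 0.36, adjusted p = 0.0293, edgeR). The call was lost when any 1 of the 4 HCT116 control clones was left out (adjusted p 0.0555 to 0.0637), when either HEK293 E7 library was left out (0.131 and 0.0884) and when those libraries were summed as 1 clone (0.107). It was kept without HEK293 control 1 (log2 difference 2.02, adjusted p = 0.0039) and without control 2 (1.97, 0.01004), where 9 and 10 HOX genes and 39.7% and 17.6% of all genes passed. HOXA10 (1.44, SE 0.44, adjusted p = 0.126), HOXB7 (-0.74, SE 0.22, adjusted p = 0.119) and HOXB3 (-0.99, SE 0.40, adjusted p = 0.235) did not pass with all libraries. By DESeq2, 1183 of 11887 genes (9.95%) passed, HOXA10 among them (1.44, adjusted p = 0.0196). HOXA10 also passed without HEK293 control 1 (1.00) or control 2 (2.06). HOXB7 passed by DESeq2 (-0.74, adjusted p = 0.0359) and without control 1 (-0.86, adjusted p = 0.00816, edgeR), and HOXB3 without control 2 (-1.27, adjusted p = 0.0264, edgeR). HOXD9, HOXD10 and HOXD11 were near 0 in the HCT116 controls and at most 0.0702, 0 and 0.0673 CPM in the E7 clone. A fall or a small rise with E7 was not detectable at this depth. No HCT116 E7 library came near the HEK293 values of these genes.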

How the data were processed

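RNA from 26 libraries was analysed. The authors deposited whole-number counts of reads per gene, 1 file per library. Per the submitters' processing notes, the build was hg19 and the tools, in no given order, included TopHat2, HTSeq 0.6.1, Partek 3 and BWA 0.6.2. Symbols matched 51996 of 57820 gene identifiers (11567 of 11887 in HEK293, whose rule for listing genes was not given in the sources used here). The 6 immunoprecipitation samples were not analysed here.

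CPM was taken over gene counts, without HTSeq summary lines, which held 7.78% to 14.3% of reads outside genes on days A to C. HCT116 libraries were summed per clone over matched days, so the clone was the replicate in E7 and 18qNE. Tests used edgeR 4.0.16 (quasi-likelihood, TMM, filterByExpr with a minimum count of 10, 2-sided) and Benjamini-Hochberg adjustment over all genes at 0.05, and were tested on simulated data. DESeq2 1.42.0 and other settings served as alternatives. Line tests used the listed HEK293 genes.

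Members and lists were chosen with earlier results of these data known. By the rule for named genes, values by library or by lowest, median and highest are given for members called at a mean of 5 CPM or more, and for the 8 others with the highest mean (14 genes); other genes printed beside them were chosen after their values were seen. Of other lists, up to 3 called genes per direction were named, and PHC1, PHC2, PHF19, CBX6 and CDX2 were added after their values were seen. Of the members, 1 is counted but not reported here. PCGF2, NEFL and PECAM1 were not matched to a symbol.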

Additional observations from a re-analysis of the deposited data

Results flagged for a closer look

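Of 23 HOX genes at 1 CPM or more on average, 2 had 1 of the 4 HCT116 control clones far from the others (the gap to the nearest clone over the whole range passed the 95% critical value of Dixon's test), where chance flags about 1 in 20 groups. HOXA11 was at 10.7 CPM in clone 4 and at 12.8 to 13.1 CPM in the others. HOXA7 was at 4.87 CPM in clone 2 and at 4.22 to 4.32 CPM in the others. The test over clones passed for neither of these genes (adjusted p 0.407 and 0.844, edgeR).

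HOXD3 was the 1 HOX gene of 34 whose E7 change differed between HEK293 and HCT116 by a test of the difference itself. The difference was 1.99 on the log2 scale (edgeR), and 3.38% of all genes passed. The call was lost when any single HCT116 control clone was left out. It rests on a HCT116 level near 1 CPM.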

How the results depend on the processing

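The number of HOX genes called in the HCT116 E7 clone was 6, and stayed within 1.5 times of that under other size factors, no filter and DESeq2; it was 12 with libraries as replicates and day as a block (5178 of 14869 genes), and 0 against the 18qNE clones (79 of 15155 genes). Leaving out 1 replicate gave 4 to 8. For 18qE it was 0, and 0 to 3 with 1 replicate left out. For E7 in HEK293 it was 0, 2 with DESeq2, and 0 to 16 with 1 replicate left out. For the difference in the E7 change between lines it was 1, 3 with DESeq2, 0 with the HEK293 E7 libraries summed as 1 clone, and 0 to 10 with 1 replicate left out. DESeq2 called 9.95% of all genes for that difference. For extraction days the number of HOX genes called was 8, and 3 to 7 with 1 clone left out. The cause was not tested.

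The labels do not say that replicate numbers pair the samples, and the main fits used no such block. Deviations of same-numbered libraries correlated at 0.09 for 18qE, 0.36 for HEK293 and -0.24 to 0.10 for 18qNE. What libraries of the same number share in HEK293 was not tested. With the replicate number as a block, 4 HOX genes were called in HEK293 (HOXD1, HOXD9, HOXD10 and HOXD11) among 670 of 11806 genes, against 3 genes without it, and 0 for 18qNE and 0 for 18qE.

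Among named genes, 7 log2 changes turned sign. HOXA9 in the E7 clone (0.05) was -0.17 against the 18qNE clones and -0.00237 to 0.101 with 1 replicate left out. HOXA9 between the lines (-0.06) was 0.10 with library totals and -0.629 to 0.343 with 1 replicate left out. With 1 replicate left out, the 18qE change was -0.0818 to 1.195 for HOXB3, -0.0339 to 1.248 for HOXB8 and -0.238 to 0.978 for HOXB9, each lowest without 18qE clone 1.

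Depth limits HOXC4 and most HOXD genes in HCT116, where 3 counts are 0.202 to 0.304 CPM per library on days A to C. The 5 HOX genes not listed in HEK293 could not be compared.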
